A study of Mus musculus with 6 samples.

Results

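The forkhead transcription factor genes examined here are the 43 members of the mouse Fox family named in a fixed list, from Foxa1 to Foxs1. All 43 were found by symbol in a RefSeq gene table (assembly GRCm38.p6), where they stand among 21523 protein-coding genes. For each gene, the SP8 peaks whose centre lay inside it, within 10 kb or within 100 kb of its start or end were taken from a deposited list of 1451 SP8 peaks, of which 1447 lie on chromosomes 1 to 19 and X. The list came from chromatin immunoprecipitation followed by sequencing (ChIP-seq) of forelimb bud ectoderm, the surface layer of the early limb, at embryonic stage E10.5. The embryos were homozygous for a knock-in Sp8 allele (Sp8FL KI) on a C57BL6J background, so that SP8 carried a FLAG epitope and was pulled down with the FLAG M2 antibody. The ectoderm of 50 forelimb buds was pooled for each replicate. The series holds 6 libraries: 2 SP8 immunoprecipitations, 2 inputs from the same genotype, and 1 H3K4me2 immunoprecipitation and 1 input from wild-type (WT) embryos. The peak list is that of SP8 replicate 1, and the other libraries were not analysed here. With 1 list there is no replicate spread, the read depth under the peaks is not known, and no difference below has a test. RNA was not measured, so the tissue could not be checked against its marker genes, and a peak beside a gene says nothing about its expression.

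Forkhead proteins bind DNA through a winged-helix domain, the forkhead box, and the family is divided into lettered subfamilies by the sequence of that domain. FOXJ1 drives the gene programme of motile cilia, and FOXO proteins act downstream of insulin and AKT signalling. FOXP proteins are mostly repressors that act as dimers, and FOXC and FOXF proteins pattern mesenchyme and other mesoderm. In surface ectoderm and its appendages the best-known members are Foxi3, expressed in placodes of hair and teeth, and Foxn1 and Foxq1, which act in hair. SP8 is a zinc-finger factor of the SP and KLF family, needed in limb ectoderm for the apical ridge, and factors of that family bind GC boxes and related GT boxes.

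SP8 peak centres lay inside or within 5 kb of 4 of the 43 forkhead genes (9.3%), against 5.56% of all protein-coding genes. These were Foxj1, Foxp4, Foxj3 and Foxo3, each with the centre within 1 kb of an end. The peak at Foxj1 was number 5 of the whole list. For 28 of the 43 genes the RefSeq promoter table of GRCm38.p6 gives the strand and the sequence around the start. The 250 bases before the start are shown for the 3 of these genes with a peak centre within 1 kb of the start, because the peaks of Foxp4 and Foxj3 cover this window and that of Foxo3 lies just upstream of it, and for Foxc1, a mesenchymal member whose nearest peak was 2848 kb away, as a promoter of like composition with no peak. Capitals mark GC boxes (GGGCGG, or CCGCCC when read on the other strand) and GT box cores (GGGTG, or CACCC). Each is written 5′ to 3′ on the strand of its gene. The windows are chr17:47924633-47924882 on the minus strand for Foxp4, chr4:119539411-119539660 on the plus strand for Foxj3, chr10:42276696-42276945 on the minus strand for Foxo3 and chr13:31806396-31806645 on the plus strand for Foxc1.
Foxp4: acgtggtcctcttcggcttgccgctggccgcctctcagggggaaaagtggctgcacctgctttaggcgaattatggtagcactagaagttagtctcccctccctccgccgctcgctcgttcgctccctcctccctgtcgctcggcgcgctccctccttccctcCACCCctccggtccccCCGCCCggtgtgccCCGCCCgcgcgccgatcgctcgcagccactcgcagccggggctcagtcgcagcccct
Foxj3: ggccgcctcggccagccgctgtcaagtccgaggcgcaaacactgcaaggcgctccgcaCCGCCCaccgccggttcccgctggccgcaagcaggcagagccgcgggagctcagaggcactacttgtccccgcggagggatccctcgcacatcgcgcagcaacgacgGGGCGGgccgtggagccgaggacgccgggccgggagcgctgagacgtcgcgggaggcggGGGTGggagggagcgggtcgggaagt
Foxo3: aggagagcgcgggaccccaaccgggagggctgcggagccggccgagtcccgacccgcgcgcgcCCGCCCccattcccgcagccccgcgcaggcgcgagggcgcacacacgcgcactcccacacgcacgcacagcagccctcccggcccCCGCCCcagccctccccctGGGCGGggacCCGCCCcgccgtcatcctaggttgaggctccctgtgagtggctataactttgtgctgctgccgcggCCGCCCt
Foxc1: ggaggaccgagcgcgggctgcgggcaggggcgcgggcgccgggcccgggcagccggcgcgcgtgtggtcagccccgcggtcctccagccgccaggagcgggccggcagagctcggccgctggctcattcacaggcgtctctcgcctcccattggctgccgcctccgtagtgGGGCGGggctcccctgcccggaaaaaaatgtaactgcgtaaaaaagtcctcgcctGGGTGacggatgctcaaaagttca

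Foxj1 carried the earliest-listed of the peaks near forkhead genes. The peak at chr11:116334978-116335761 was 783 bp wide, and its centre lay inside the gene, 129.5 bp from its higher-coordinate end, which the peak spanned. Width here means end minus start as deposited, and the deposited positions may count from 0 or from 1, a difference of 1 bp. Of the peaks in the list, 94.1% were narrower. What the order of the list stands for is not given in the sources used here. A boundary of Rnf157, which encodes a RING finger protein, lay 0.9755 kb from the same peak centre, on the other side of the end of Foxj1. A second peak, number 188 and 284 bp wide, lay 23.9 kb beyond the opposite end of Foxj1 with no protein-coding gene between. Its centre was 13 bp from a boundary of Exoc7, which encodes an exocyst subunit, so it was assigned to Foxj1 only by the window of 100 kb. Foxj1 and Foxm1 were the forkhead genes with 2 peaks within 100 kb.

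The Foxj3 peak covered the gene start. It lay at chr4:119539325-119539670, was 345 bp wide and was number 436. Its centre was 163.5 bp upstream of the start, and it contained all 250 bases of the Foxj3 sequence printed above, with its 2 GC boxes and 1 GT box core. The other protein-coding boundary within 1 kb was that of Frg2f1, at 0.7285 kb. Foxj2, the other member of the subfamily, was 334 kb from its nearest peak, which lay inside Rimklb. FOXJ2 and FOXJ3 are transcription factors not tied to cilia in the way that FOXJ1 is.

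At Foxp4 the peak was the widest of the 5 within 10 kb of a forkhead gene. It lay at chr17:47924088-47924974, was 886 bp wide, wider than 95.9% of the list, and was number 821. Its centre lay inside the gene, 101 bp downstream of the start, and the peak contained the whole printed Foxp4 sequence, with 2 GC boxes and 1 GT box core. Foxp4 is expressed in lung, gut and neural epithelia. The other 3 genes of its subfamily had no peak within 100 kb. Foxp3, the factor of regulatory T cells, was 304 kb from a peak, Foxp1 was 369 kb away, and Foxp2, known for its part in speech, was 3073 kb away. Foxp1 and Foxp2 are long genes, of 597 and 541 kb, and held no peak centre in their length.

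The Foxo3 peak lay just upstream of the promoter rather than on it. It was at chr10:42277489-42277761, 272 bp wide and number 1021, with its centre 930 bp upstream of the start. It did not reach the printed Foxo3 sequence, which holds 5 GC boxes, the most of the 28 forkhead promoters, and no GT box core. No other gene boundary of any kind was within 1 kb of that peak. Foxo1 had its nearest peak at 129.5 kb upstream, and that peak was nearer to Maml3, which encodes a Notch coactivator. A peak on the other side of Foxo1, 312.3 kb away, number 1308 and 231 bp wide, had Foxo1 as its nearest protein-coding gene. Foxo6, expressed mainly in brain, was 302.7 kb from a peak, and Foxo4 on chromosome X was 6337 kb from one, the farthest of the 43.

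The fifth gene within 10 kb was Foxr2, which encodes one of the most divergent forkhead proteins. The peak at chrX:153139623-153139874 was 251 bp wide, was number 224, and lay downstream of Foxr2. It was 6.89 kb from the end of Foxr2 and 21.0 kb from its start in the promoter table, which lies inside the gene. The peak lay inside Rragb, which encodes a Rag GTPase of the amino acid sensing pathway, 2.10 kb from a boundary of that gene. Chromosome X had 13 peaks in all and 3 forkhead genes, and the peak at Rragb had the lowest number of the 13. Foxr2 was therefore called by its distance, while the peak had a different nearest gene.

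**Figure D1:**
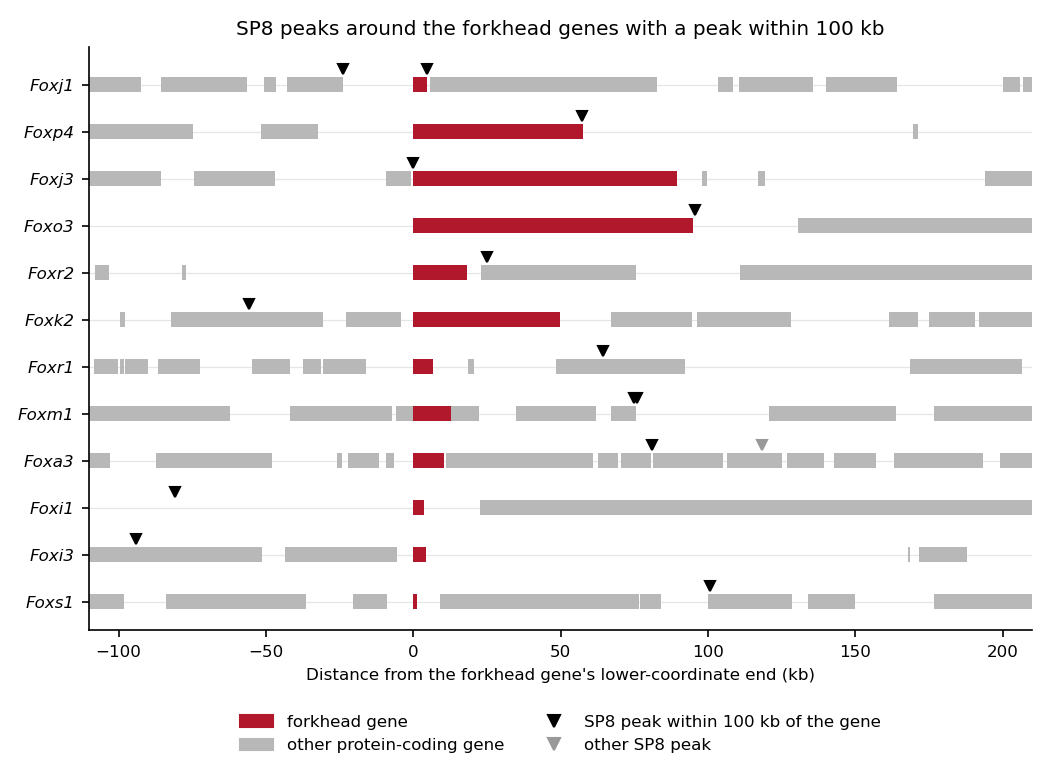
Protein-coding genes and SP8 peak centres around the 12 forkhead genes with a peak within 100 kb, to scale, with the distance in kb from the lower-coordinate end of each forkhead gene on the x axis and 1 gene per row. Red bars are the forkhead genes, grey bars other protein-coding genes, and triangles peak centres. The top 4 genes have a triangle at or near an end of the red bar, and the lower 7 have it from 55.7 kb outwards, over or beside a grey bar for all but Foxi1.

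Between 10 and 100 kb there were 7 more genes and no peak that had the forkhead gene as its nearest. Foxk2, whose product takes part in metabolic and autophagy gene control, was 55.7 kb from peak 930 (585 bp), which lay in Ogfod3, 0.1045 kb from a boundary of Hexdc, with 4 protein-coding genes on the way. Foxr1 was 57.8 kb from peak 74, the widest of the 14 at 936 bp, inside Bcl9l, a coactivator gene of β-catenin. Foxm1, a driver of mitotic gene expression, was 61.9 and 63.0 kb from peaks 538 and 755, of 525 and 199 bp. Both were at Fkbp4, which encodes a co-chaperone of HSP90, and the narrower one had the smallest width of the list, shared by 63 peaks. Foxa3, an endodermal and liver factor, was 70.7 kb from peak 1208 (211 bp), which lay between Dmpk and Six5. Each of these peaks thus sat at or in another gene.

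The remaining cases were 2 Foxi genes and Foxs1. Foxi1, a factor of ionocytes in inner ear and kidney, had peak 470 (226 bp) at chr11:34123308-34123534, 80.9 kb beyond its end and 84.7 kb downstream of its start. That peak lay outside all genes of the table, with no protein-coding gene between it and Foxi1, although Lcp2 was nearer, at 31.1 kb on the other side. Foxi3 had peak 623 (623 bp) at chr6:70862258-70862881, 94.04 kb upstream, inside Eif2ak3, the gene of the stress kinase PERK, with that gene and Tex37 on the way. The peak was wider than 88.5% of the list. Foxs1 was just inside the limit, at 99.2 kb from peak 729 (245 bp) in Xkr7. Just outside it, Foxi2 was 124.1 kb from peak 559 (210 bp), and Foxo1 129.5 kb from peak 606 (487 bp). Farther out, Foxh1 was 145.6 kb from a peak, Foxn1 149.6 kb from peak 809 (226 bp) and Foxd1 167.4 kb from peak 658 (203 bp). The peak nearest to Foxh1, whose product works with SMAD2 in Nodal signalling, was 897 bp wide, number 178, and 0.1475 kb from Scrt1. At the inner limit, Foxr2 was the last inside 10 kb and Foxk2 the first outside.

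In counts, 5 of the 43 forkhead genes (11.6%) had a peak centre inside or within 10 kb, and 6.48% of all protein-coding genes did. Within 100 kb there were 12 of 43 (27.9%), against 20.1% of all genes. With a peak inside the gene there were 2, Foxj1 and Foxp4 (4.65%, against 3.47%). Of the 28 genes with a known start, 3 (10.7%) had a peak centre within 1 kb of it, against 2.91% of all genes with a start in the table. Within 100 kb, 4 forkhead genes (9.3%) were the nearest gene of a peak, against 5.52%. These are small counts, none was tested, and at 50 kb the share was 11.6% against 13.3% of all genes. The Sox and T-box genes, another set of developmental regulators, came to 13.9% (5 of 36) at 10 kb and 27.8% (10 of 36) at 100 kb. The Sp and Klf genes came to 46.2% (12 of 26) and 65.4% (17 of 26). Neither contrast with the forkhead genes was tested.

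**Figure D2:**
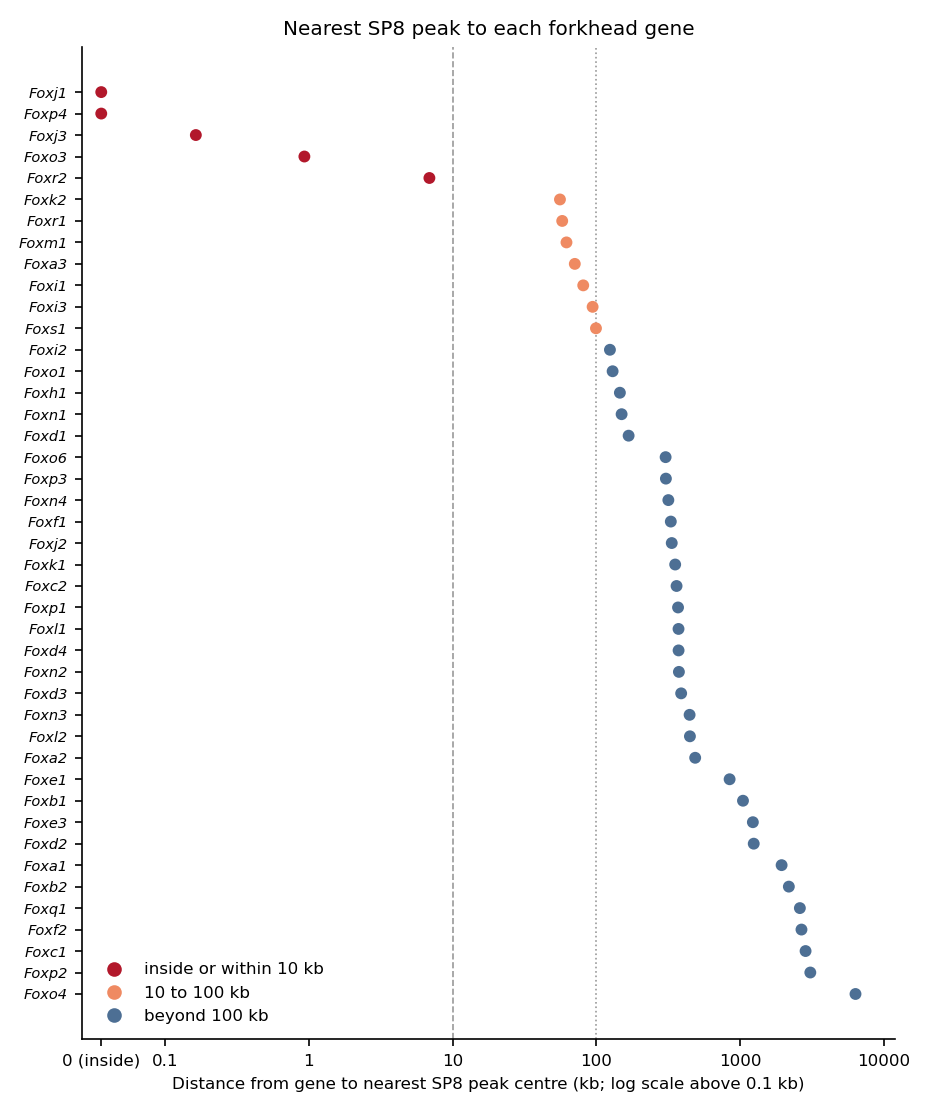
Distance in kb from each of the 43 forkhead genes to the nearest SP8 peak centre, on a log scale above 0.1 kb, with genes ordered by distance and coloured by window. The dashed and dotted lines stand at 10 and 100 kb. There are 5 genes left of the first line and 12 left of the second, with an empty stretch between Foxr2 at 6.89 kb and Foxk2 at 55.7 kb.

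The other 31 genes had no peak within 100 kb, and for 10 of them none within 1000 kb (23.3%, against 30.7% of all genes). The median distance to the nearest peak was 334 kb for forkhead genes and 481 kb for all protein-coding genes. No gene of the Foxb, Foxc, Foxd, Foxe, Foxf, Foxl or Foxn subfamilies, nor Foxh1 or Foxq1, had a peak within 100 kb. These subfamilies hold at most 4 genes each, and only 20.1% of all protein-coding genes had a peak in that window. Because depth is unknown, a gene without a peak may be unbound or bound below the calling threshold.

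**Figure D3:**
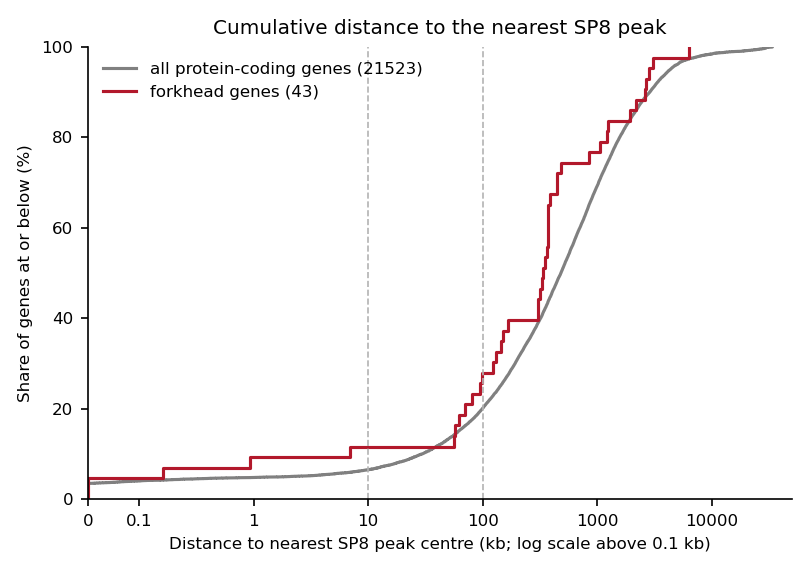
Cumulative share of genes, in percent, by distance in kb to the nearest SP8 peak centre (log scale above 0.1 kb) for the 43 forkhead genes in red and all 21523 protein-coding genes in grey. At 10 kb the curves stand at 11.6% and 6.48%, at 100 kb at 27.9% and 20.1%, and at 50 kb the red curve is the lower one, at 11.6% against 13.3%.

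The forkhead genes that sit in clusters had no peak within 100 kb, as was the case for 31 of the 43, and 20.1% of all protein-coding genes had one. With genes at most 200 kb apart joined, the 43 genes formed 38 loci, of which 3 held more than 1 gene and together held 8. Foxf1, Foxc2 and Foxl1 on chromosome 8 span 46.3 kb, and share as nearest peak number 15 of the list, 603 bp wide, at chr8:120755106-120755709 inside Irf8, 329 kb from Foxf1 and 372 kb from Foxl1. FOXF1 and FOXL1 act in mesenchyme beneath gut epithelium and FOXC2 in lymphatic and other mesoderm. Foxq1, Foxf2 and Foxc1 on chromosome 13 span 252 kb and lay in a stretch of 6230 kb between neighbouring peak centres. Their nearest peak, number 787 and 609 bp wide, was 2600 to 2848 kb away and 4.82 kb from Sox4. Foxd2 and Foxe3 on chromosome 4 were 1242 and 1224 kb from peak 1041 beside Pomgnt1. For comparison, the stretch between peaks that held the midpoint of a gene had a median of 2498 kb for forkhead genes and 2809 kb for all 20918 protein-coding genes with peaks on both sides.

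The forkhead genes with and without a near peak were also described by gene length and neighbourhood. The family is made largely of short genes, with a median length of 5.59 kb against 17.4 kb for all protein-coding genes. Of the 25 forkhead genes under 10 kb long, 1 (Foxj1) had a peak within 10 kb, or 4%, with 4.1% among all genes of that length. Of the 18 longer genes, 4 did (22.2%, against 7.79%). Within 100 kb the counts were 5 of 25 (20%, against 18.4%) and 7 of 18 (38.9%, against 21%). The 12 genes with a peak within 100 kb had a median of 5.5 other protein-coding genes in the same window (range 1 to 11), and the 31 others had a median of 3 (range 0 to 15). The part of gene density in the count at 100 kb was not tested.

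Peaks near forkhead genes were found among narrow and wide, early and late peaks of the list. The 14 peaks within 100 kb had a median width of 314.5 bp and a range of 199 to 936 bp, where the median of the list was 336 bp. Of the 14, 7 were wider than that median. Their median number was 580.5 (range 5 to 1208), where the middle of the list is 726, and 8 of the 14 were among the first 725. The 5 peaks within 10 kb ranged from 251 to 886 bp and from number 5 to number 1021. Foxj1 and Foxp4 had wide peaks, 1 early and 1 late in the list, and Foxo3 had a narrow, late one.

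**Figure D4:**
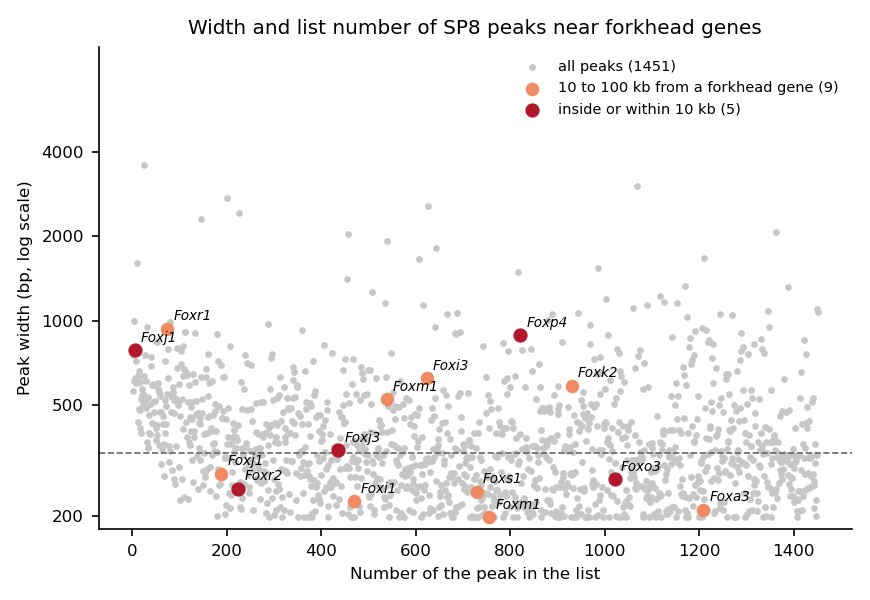
Width in bp (log scale) against list number for all 1451 SP8 peaks in grey, for the 9 peaks at 10 to 100 kb from a forkhead gene in orange and for the 5 inside or within 10 kb in red, each labelled with the gene. The dashed line is the median width of the list, 336 bp, and the coloured points lie on both sides of it and along most of the number axis.

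The 3 promoters with a peak within 1 kb of the start were rich in GC. Over the 250 bases before the start, GC content was 69.6% for Foxp4, 74.4% for Foxj3 and 76.4% for Foxo3. The 28 forkhead promoters ranged from 46.0 to 80.4% with a median of 63.0%, above the median of 55.6% over the promoters of 17274 protein-coding genes. Among the 502 genes with a peak within 1 kb of a start, the median was 68.0%. High GC content also occurred without a peak: 8 of the 25 other forkhead promoters were at or above 68.0%, among them Foxj2 at 80.4%, Foxk2 at 78.4% and Foxc1 at 70.8%. Where a gene has several starts, as 3 of the 28 do, the one nearest to a peak was used.

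**Figure D5:**
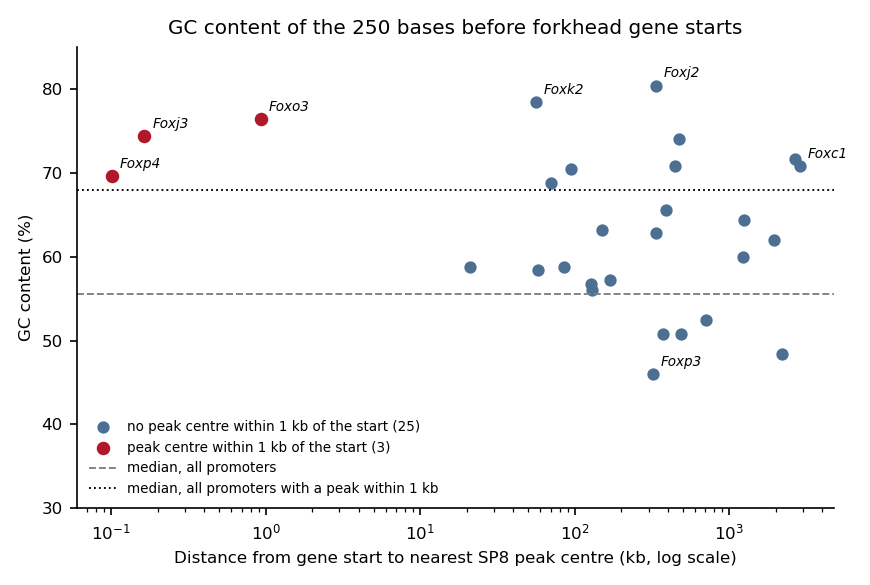
GC content in percent of the 250 bases before the start of 28 forkhead genes, against the distance in kb from the start to the nearest SP8 peak centre (log scale), in red for the 3 with a peak within 1 kb. Lines give the medians of all promoters (55.6%) and of all promoters with a peak within 1 kb (68.0%). The red points lie above both lines, and 8 blue points do too.

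Motifs were counted in the same windows. At least 1 GC box (GGGCGG on either strand) was found in 3 of the 3 forkhead promoters with a peak centre within 1 kb of the start. The Foxo3 window lay outside its peak. A GC box was also in 17 of the 25 others, so in 71.4% of the 28. Among all promoters 42.8% held one, and among all promoters with a peak within 1 kb 83.5% did. The GT box core GGGTG was found in 2 of 3 (Foxp4 and Foxj3) and 16 of 25, so in 64.3% of the 28, where 53.3% of all promoters and 64.3% of all promoters with a peak within 1 kb held one. Overlap between GC boxes and GT box cores was allowed. The homeodomain core TAATTA was found in Foxn1 alone of the 28 (4.39% of all promoters), and the forkhead site TGTTTAC in Foxa1 alone (2.62%). Foxc1, printed above with no peak near, holds 1 GC box and 1 GT box core, and Foxa2, Foxb2, Foxd4, Foxe3 and Foxn3 hold neither. These matches describe the letters of the windows and do not show where SP8 bound.

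Genes that act with forkhead proteins were examined from a list of 39 regulators, partners and targets, all found in the gene table. A peak lay inside or within 10 kb of 4 (10.3%, against 6.48% of all genes), and within 100 kb of 10 (25.6%, against 20.1%). Irs2, an adaptor gene of the insulin receptor upstream of AKT, had peak 1017, 237 bp wide, 0.4255 kb upstream of its start. The related listed genes Igf1r, Irs1 and Insr had none within 100 kb, at 1714, 2374 and 4830 kb. Rfx2, a ciliary factor gene that acts with Foxj1, had peak 151, 336 bp wide, 52 bp from its start. The other ciliary genes of the list had none within 100 kb. Rfx3 was 645 kb from a peak, Ccno 791 kb, Mcidas 797 kb, Gmnc 1266 kb and Dnah5 2171 kb. Smad2, a partner gene of Foxh1, held peak 772, 326 bp wide, 0.307 kb from its boundary. Foxh1 had none within 100 kb while Smad2 did. Smad4 was 58.5 kb from peak 721, whose nearest protein-coding gene was Me2. Smad3 and Nodal, also in the list, had no peak within 100 kb, at 259.3 and 144.4 kb. The few cell-cycle targets of FOXM1 in the list, such as Ccnb1 at 127.6 kb, had no peak within 100 kb. Of all protein-coding genes, 20.1% had one.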

How the data were processed

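The deposited file analysed here lists the sequence name, start, end and a running number for each SP8 peak, per its values. The authors named it for SP8 replicate 1, a q of 0.1 and a fold change of 3, which could not be checked because no q or fold is given. The submitters' processing notes name FastQC, TopHat2, SAMtools, deepTools and MACS2 and the builds GRCm38 and mm10. The versions, the control library, any pooling and the depth per library are not given in the sources used here. Genes on chromosomes 1 to 19 and X with a start at or above 3 Mb were taken from the RefSeq table of GRCm38.p6 (49214 genes, 21523 protein-coding), and peaks were placed by their centre. The 4 peaks on unplaced contigs were left out. Promoter windows and strands came from the RefSeq promoter table. Of its 21045 starts of protein-coding genes, 10370 lay at the gene boundary and the others inside the gene. Distances were computed with Python 3.11.15, pandas 2.3.3 and numpy 2.4.6, and tested on simulated peaks at known distances. The forkhead genes, the partner list, the motifs and the alternatives were chosen with earlier results of these data known. Every forkhead gene with a peak within 100 kb is named with its peaks, as are the 5 next nearest and the partner genes with a peak within 10 kb, except 1 that is not reported here. Other genes named were chosen after their values were seen. No test was made, since 1 list has no replicate spread. Alternatives covered the window, the placing of peaks, the part of the list used, the assignment to the nearest gene, clustered genes and the motif strand.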

Additional observations from a re-analysis of the deposited data

How the results depend on the processing

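Of 25 alternatives over 10 results, 10 were classed as moved and 15 as not moved, but some of the 15 also shifted. The median width of peaks near forkhead genes went from 314.5 to 435 bp with the first 725 peaks. The median over all of the first 725 peaks is not given here, so this shift has no like value beside it. Their median number went from 580.5 to 436 with a window of 10 kb. The count of 5 forkhead genes within 10 kb fell to 3 with the first 725 peaks (3.23% of all genes) and to 3 with peaks wider than the median (3.48%). With distances from gene starts it was 3 of the 28 genes with a start, against 4.36%, which is not a count over the same genes. Foxj1 is not among these 28, and the start of Foxr2 was 21.0 kb from its peak. For the whole family, the count was 4 with a window of 5 kb (5.56% of all genes) and 5 with 20 kb (8.35%). With peaks assigned to their nearest gene it was 4 (4.74%). The count of 12 within 100 kb fell to 5 with a window of 50 kb (13.3% of all genes), to 7 with the first 725 peaks (10.7%), to 7 with peaks wider than the median (11.3%) and to 4 when a peak counted only for its nearest gene (5.52%). It was 17 with a window of 200 kb (30.9%). The partner list went from 4 to 10 genes with a window of 100 kb. Read on the gene strand only, GGGCGG was in 12 forkhead promoters in place of 20 (42.9%, against 26.9% of all promoters). The GT box core GGGTG was in 12 in place of 18 (42.9%, against 32%). The forkhead site TGTTTAC was in 0 in place of 1, against 1.34% of all promoters. Fewer peaks, shorter windows and 1 strand lower these counts by construction. The unknown depth limits what can be said of genes without a peak. No paired analysis was possible because the values came from 1 list of 1 replicate. Leaving out replicates in turn was likewise not possible.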
